A study of Mus musculus with 62 samples.

Results

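The core circadian clock genes are described here in neocortex from mice carrying melanoma. They were taken by symbol: Arntl, Clock and Npas2 as transcriptional activators, and Per1, Per2, Per3, Cry1, Cry2, Nr1d1 and Nr1d2 as repressors, 10 of the 47643 genes in the deposited table. Each of the 10 had a mean of at least 1 TPM and so was among the 14494 genes tested. TPM is transcript abundance per length, scaled to a common sum in each library. Poly(A) RNA was sequenced from the neocortex of female mice, aged 2 months when injected. CAC mice received melanoma cells that bring on cachexia, a wasting of fat and muscle. NCAC mice received melanoma cells that do not, and Con mice a mock injection. Tissue came from 2, 4, 6 and 8 weeks afterwards, with 5 libraries in each of the 12 groups except CAC at 8 weeks, which had 7 (62 in all). The hosts are athymic nude mice by the design text but C57BL6/J by the sample labels, so the strain is uncertain, and the tumour lines are not named further. Neither the time of day at which tissue was taken nor the lighting is given in the sources used here.

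The circadian clock is a feedback loop of transcription. ARNTL (also called BMAL1) pairs with CLOCK, or in forebrain with NPAS2, binds E-boxes in DNA and switches on the Per, Cry and Nr1d genes. PER and CRY proteins then return to the nucleus and inhibit that pair, while the nuclear receptors NR1D1 and NR1D2 (REV-ERB alpha and beta) repress Arntl, Clock, Npas2 and Cry1 through RORE elements. In tissues sampled around the clock, Arntl therefore peaks at about the opposite time of day to Nr1d1, Dbp and the Per genes.

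Consensus letters of the loop's binding elements were searched in the promoters. The 250 bases before the annotated start are printed for 4 members and for Ciart, a further E-box repressor of the clock. Each printed stretch holds letters that match an element searched. Sequences are from RefSeq (GRCm38.p6), 5′ to 3′ on the gene's strand, with matches in capitals. Per1 is on chromosome 11 (chr11:69098699-69098948, plus strand), where CACGTG is the E-box and TGACCT is the RORE core AGGTCA read on the other strand. Cry1 is on chromosome 10 (chr10:85185055-85185304, minus strand) with 1 E-box. Per3 is on chromosome 4 (chr4:151044666-151044915, minus strand) with 2 copies of the D-box TTATGTAA, the element bound by DBP, TEF, HLF and NFIL3. Nr1d2 is on chromosome 14 (chr14:18239107-18239356, minus strand) with 1 RORE core. Ciart is on chromosome 3 (chr3:95882229-95882478, minus strand) with 3 E-boxes.
Per1: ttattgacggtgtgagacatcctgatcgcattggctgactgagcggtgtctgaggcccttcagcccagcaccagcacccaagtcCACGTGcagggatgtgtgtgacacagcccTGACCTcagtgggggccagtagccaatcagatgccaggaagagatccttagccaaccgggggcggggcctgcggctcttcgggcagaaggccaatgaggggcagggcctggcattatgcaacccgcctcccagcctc
Cry1: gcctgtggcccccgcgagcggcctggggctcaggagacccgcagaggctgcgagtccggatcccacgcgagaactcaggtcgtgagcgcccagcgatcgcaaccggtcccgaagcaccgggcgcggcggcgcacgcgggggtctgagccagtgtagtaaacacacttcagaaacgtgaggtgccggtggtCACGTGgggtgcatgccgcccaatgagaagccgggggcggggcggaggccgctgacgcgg
Per3: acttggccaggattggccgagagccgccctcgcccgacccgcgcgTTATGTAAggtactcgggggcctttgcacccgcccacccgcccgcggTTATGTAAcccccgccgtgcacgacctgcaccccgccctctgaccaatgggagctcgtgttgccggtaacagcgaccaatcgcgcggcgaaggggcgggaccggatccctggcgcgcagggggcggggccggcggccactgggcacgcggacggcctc
Nr1d2: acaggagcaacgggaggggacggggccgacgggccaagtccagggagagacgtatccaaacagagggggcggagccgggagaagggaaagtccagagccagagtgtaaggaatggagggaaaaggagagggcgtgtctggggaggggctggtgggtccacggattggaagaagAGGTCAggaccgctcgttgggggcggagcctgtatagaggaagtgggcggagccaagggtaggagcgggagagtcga
Ciart: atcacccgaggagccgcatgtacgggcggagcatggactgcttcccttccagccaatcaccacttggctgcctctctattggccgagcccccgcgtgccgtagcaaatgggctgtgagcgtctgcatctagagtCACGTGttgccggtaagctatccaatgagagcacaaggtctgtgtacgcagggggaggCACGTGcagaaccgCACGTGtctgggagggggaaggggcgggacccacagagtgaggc
Both strands were searched for 5 motifs in windows that run from 250 bases before to 50 after each start. Over 32851 such windows, CACGTG was found in 7.15%, AGGTCA in 16.3%, TTATGTAA in 0.938%, the cAMP response element TGACGTCA in 1.79% and its core TGACG in 20.8%. The table held 9 of the 10 members, with Per2 the exception. None of the 5 motifs was found in the windows of Npas2, Nr1d1 and the output gene Dbp, which was also searched. Another annotated Per1 start, not printed, had no E-box. Cores of TGACG, which are not capitalised, also occurred in windows of Per1, Cry1 and Cry2, and AGGTCA occurred in a window each of Arntl and Clock. A match is a description of the letters and does not show binding.

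The deposited values corresponded to an estimated 44.8 to 50.5 M reads per library, and the lowest member value rested on about 729 reads (Cry1), so counting error was at most 3.7% for any member in any library. Of the excitatory cortical neuron markers, 8 of 8 had a mean of at least 1 TPM in each group. So did 8 of 8 striatal and 7 of 7 thalamic markers, so this bar does not tell regions apart. Markers of other brain regions were also present: striatal markers summed to a median of 1607 TPM over all libraries, beside 1311 TPM for the excitatory cortical markers, and choroid plexus markers ran from 19.99 to 3102 TPM. Some libraries stood apart. A Con library at 2 weeks (replicate 5) had 3878 TPM summed over hypothalamus and pituitary markers, against a median of 37.1 TPM over all libraries, a CAC library at 8 weeks (replicate 3) had 22529 TPM of erythroid markers, and a CAC library at 4 weeks (replicate 1) had 187 TPM of striatal markers, against a median of 1763 TPM in its group. These 3 are left out in an alternative fit given where it matters. Lane 3 held 24 libraries, namely those of week 2, of CAC at 4 weeks and 4 of the 5 of NCAC at 4 weeks, and lane 4 the other 38, so that Con at 2 weeks and Con at later weeks differ in lane as well, and week and lane cannot be told apart there.

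The 10 genes are protein-coding and lie on 8 chromosomes, by GENCODE vM21 positions on GRCm38. The activators are Arntl (ENSMUSG00000055116) at chr7:113207465-113314126 on the plus strand, Clock (ENSMUSG00000029238) at chr5:76209868-76304792 on the minus strand and Npas2 (ENSMUSG00000026077) at chr1:39193731-39363236 on the plus strand. The period genes are Per1 (ENSMUSG00000020893) at chr11:69095217-69109960 on the plus strand, Per2 (ENSMUSG00000055866) at chr1:91415982-91459324 on the minus strand and Per3 (ENSMUSG00000028957) at chr4:151003652-151044665 on the minus strand. The cryptochromes are Cry1 (ENSMUSG00000020038) at chr10:85131700-85185064 on the minus strand and Cry2 (ENSMUSG00000068742) at chr2:92403646-92434043 on the minus strand. The nuclear receptors are Nr1d1 (ENSMUSG00000020889) at chr11:98767932-98775333 on the minus strand and Nr1d2 (ENSMUSG00000021775) at chr14:18204054-18239127 on the minus strand.

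All 10 genes were measured in every library. In order of median level over the 62 libraries, in TPM, Nr1d1 stood at 119, Nr1d2 at 83.7, Cry2 at 73.3, Per1 at 61.96, Npas2 at 28.9, Arntl at 27.2, Per2 at 23.2, Cry1 at 22.5, Clock at 21.5 and Per3 at 16.2. The ranges over libraries overlapped between neighbours in this order, from Nr1d1 with 71.9 to 155 TPM down to Per3 with 9.90 to 27.7 TPM. Per2 had the widest spread, with a within-group SD of 0.47 on the log2(TPM + 1) scale and a 4.39-fold range over all libraries, and 99.3% of genes within 0.5 log2 units of its level varied less. Per1 had an SD of 0.38 and a 3.88-fold range. Per3, Cry1 and Nr1d1 had SDs of 0.27, 0.24 and 0.21. At the other end, Cry2 had an SD of 0.11, Npas2 0.13, Clock 0.15, Arntl 0.16 and Nr1d2 0.16. Over the 12 groups the mean of Per2 ran from 18.2 TPM in NCAC at 8 weeks to 28.5 TPM in NCAC at 2 weeks, and that of Cry2 from 62.4 TPM in Con at 2 weeks to 86.8 TPM in CAC at 8 weeks.

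**Figure D1:**
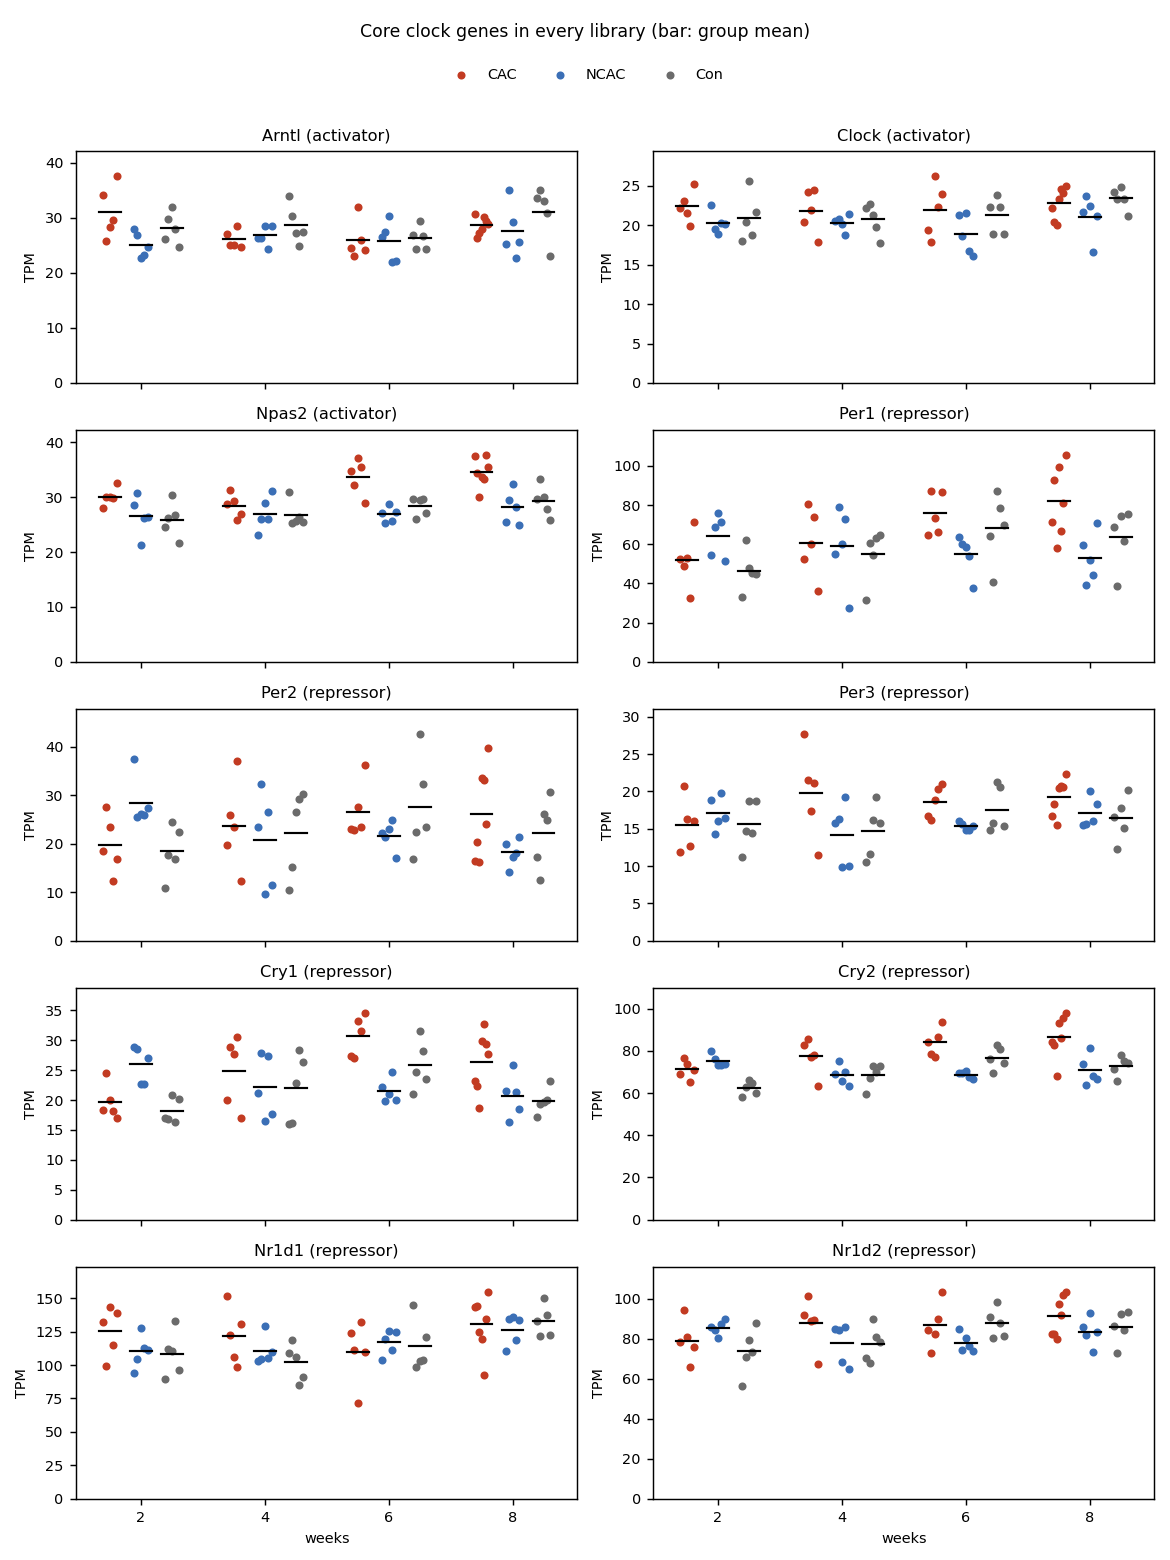
TPM (vertical axis, from 0) of each of the 10 core clock genes in every library, by weeks after injection (horizontal axis), with CAC in red, NCAC in blue and Con in grey within each week and a bar at each group mean. Per1 and Per2 scatter most within groups, and CAC at 6 and 8 weeks lies high in Npas2, Cry1 and Cry2.

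Each gene was tested in one limma fit over all 12 groups on log2(TPM + 1), with p-values adjusted over the 14494 genes by the Benjamini-Hochberg method and a gene was called where its adjusted p was under 0.05. In CAC against Con, 0 members were called at 2, 4 and 6 weeks and 2 at 8 weeks, Npas2 and Cry2, both higher. The share of all tested genes called was 4.28%, 0.0414%, 1.63% and 8.6% at 2, 4, 6 and 8 weeks. Unadjusted limma p-values under 0.05 numbered 2, 2, 1 and 3 of the 10 members at these weeks, beside 21.7%, 13.1%, 14% and 22.3% of all genes, and exact permutation tests of each gene alone gave 2, 0, 1 and 3. In NCAC against Con, 2 members were called at 2 weeks, Cry1 and Cry2, again both higher, where 8.71% of all genes were called, and 0 at 4, 6 and 8 weeks, where 0% of all genes were called in each. There the unadjusted limma counts were 0, 1 and 0, beside 0.614%, 6.58% and 4.39% of all genes, and the exact counts 0, 2 and 0. In CAC against NCAC, 0 members were called at 2 weeks (0% of all genes) and at 4 weeks (0.0069%), with 3 and 2 unadjusted limma p-values under 0.05, beside 4.25% and 16.3% of all genes, and 3 and 0 exact p-values. At 6 weeks 3 members were called (Npas2, Cry1 and Cry2, 9.65% of all genes) and at 8 weeks 2 (Npas2 and Cry2, 6.02%), each higher in CAC. Arntl, Clock, Per1, Per2, Per3, Nr1d1 and Nr1d2 passed in none of these 12 comparisons between arms. CAC and NCAC are set against the same Con libraries, so the comparisons are not independent of each other. Where groups are said below not to overlap, the share of all genes without overlap was not computed.

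**Figure D2:**
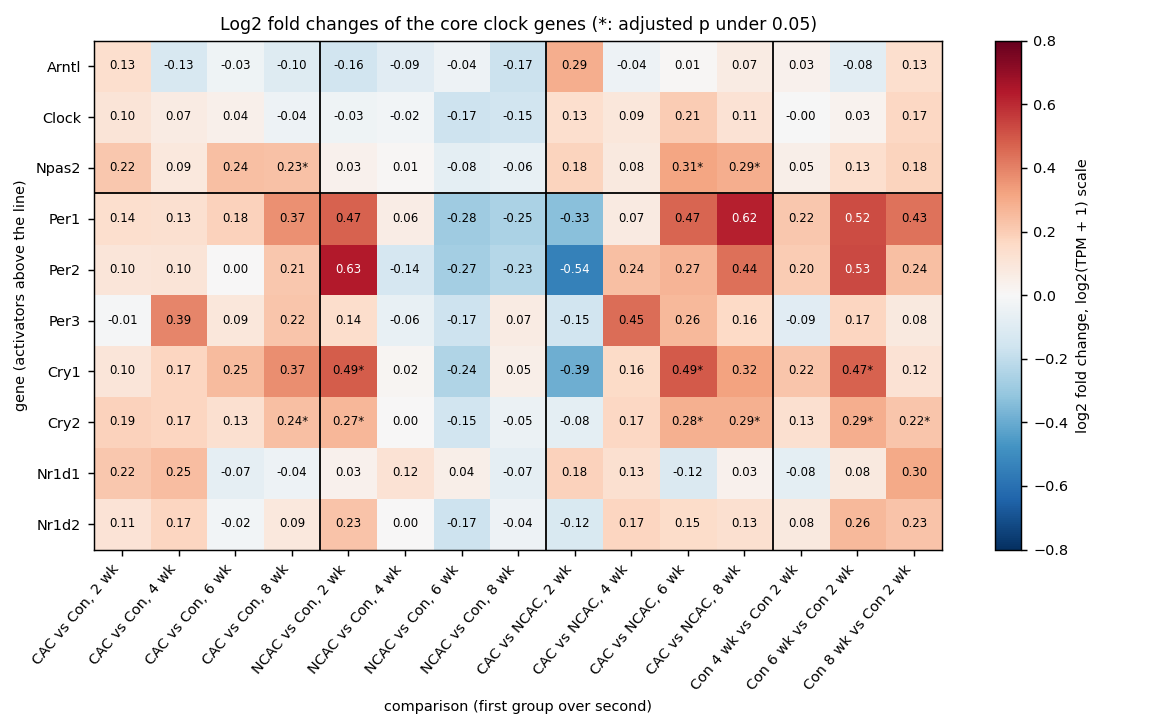
Log2 fold changes of the 10 core clock genes (rows, activators above the line) in 15 comparisons (columns, the group named first over the group named second) on the log2(TPM + 1) scale, with an asterisk at an adjusted p under 0.05. The 12 asterisks are on Npas2, Cry1 and Cry2 and all mark higher values in the group named first, such as 0.49 for Cry1 in CAC against NCAC at 6 weeks.

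Among the activators, Npas2, which takes the place of Clock in much of the forebrain, was the one called. At 8 weeks it had a lowest value of 29.99, a median of 34.4 and a highest value of 37.7 TPM in CAC, against 25.6, 29.5, 32.3, 28.3 and 24.97 TPM in NCAC and 29.6, 33.4, 30.1, 27.8 and 25.8 TPM in Con. The CAC libraries lay mostly above those of NCAC and Con, with overlap at their lower end. Npas2 rose 1.17-fold in CAC over Con (log2 fold change 0.23 ± 0.0754 (SE), adjusted p = 0.0421, limma) and 1.22-fold over NCAC (log2 fold change 0.29 ± 0.0754 (SE), adjusted p = 0.0118, limma). The call against Con was lost with 9 of the 12 libraries left out in turn, with adjusted p-values up to 0.17, and with TMM scaling (a trimmed-mean rescaling of the libraries, adjusted p = 0.0527). The call against Con held without the CAC library rich in erythroid RNA and the other 2 that stood apart, where the log2 fold change was 0.26 and the adjusted p 0.0114. The call against NCAC was lost with 2 of the 12 libraries left out in turn, with adjusted p-values up to 0.0704. It was also lost when the groups compared were fitted alone.

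At 6 weeks Npas2 had 34.8, 32.2, 37.1, 35.4 and 29.03 TPM in CAC, against 27.2, 25.3, 28.8, 25.6 and 27.3 TPM in NCAC and 29.6, 25.9, 29.6, 29.6 and 27.1 TPM in Con. Every CAC library was above every NCAC library. It rose 1.24-fold over NCAC (log2 fold change 0.31 ± 0.0814 (SE), adjusted p = 0.0138, limma), whereas against Con the log2 fold change was 0.24 ± 0.0814 (SE) with an adjusted p of 0.12. With TMM scaling, which moved the median of all genes in this comparison by -0.08, the value against NCAC was 0.23 (adjusted p = 0.089). Within CAC, Npas2 differed among the 4 weeks (adjusted p = 0.0371, limma F test, with 3 of 10 members and 7.09% of all genes called), from a mean of 30.1 ± 1.6 TPM at 2 weeks through 28.4 ± 2.13 TPM at 4 and 33.7 ± 3.16 TPM at 6 weeks to 34.6 ± 2.65 TPM at 8 weeks (SD, n = 5, 5, 5 and 7). The CAC libraries of 2 and 4 weeks were on lane 3 and those of 6 and 8 weeks on lane 4. Week and lane can therefore not be told apart across that step.

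Arntl, which encodes the indispensable partner BMAL1, did not pass in any comparison. At 8 weeks it had a lowest value of 26.3, a median of 28.9 and a highest value of 30.7 TPM in CAC, 25.2, 35.1, 29.2, 22.7 and 25.7 TPM in NCAC and 33.7, 35.1, 33.1, 30.8 and 22.995 TPM in Con. The arms overlapped, and the Con values alone ran from 22.995 to 35.1 TPM. The log2 fold change of CAC over Con was -0.10 ± 0.0929 (SE, adjusted p = 0.557, limma). Its farthest difference between arms in a week was at 2 weeks, with 34.2, 25.8, 28.2, 29.5 and 37.6 TPM in CAC against 27.98, 26.9, 22.6, 23.2 and 24.7 TPM in NCAC, where the log2 fold change was 0.29 ± 0.10 (SE, limma, adjusted p = 0.998). Clock, the histone acetyltransferase partner of BMAL1, had log2 fold changes between -0.17 (NCAC against Con at 6 weeks) and 0.21 (CAC against NCAC at 6 weeks), with adjusted p-values of 0.662 and 0.138.

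Among the repressors, the cryptochromes carried the calls. Cry2 at 8 weeks had a lowest value of 67.9, a median of 85.9 and a highest value of 98.1 TPM in CAC, against 73.9, 63.97, 81.3, 68.04 and 66.8 TPM in NCAC and 71.2, 65.9, 78.1, 75.2 and 74.3 TPM in Con. A single CAC library (replicate 3, the one rich in erythroid RNA) lay among the Con values, and the other 6 exceeded the highest Con value. Cry2 rose 1.18-fold over Con (log2 fold change 0.24 ± 0.0663 (SE), adjusted p = 0.0146, limma) and 1.22-fold over NCAC (log2 fold change 0.29 ± 0.0663 (SE), adjusted p = 0.00468, limma). Without the 3 libraries that stood apart these were 0.30 (adjusted p = 5.97e-04) and 0.34 (adjusted p = 1.08e-04). The call against Con was lost without Con replicate 2 (adjusted p = 0.0579) and when the groups compared were fitted alone (adjusted p = 0.0817), and in the same kind of fit the call against NCAC was lost as well (adjusted p = 0.0964).

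Cry1 at 8 weeks had a lowest value of 18.8, a median of 27.7 and a highest value of 32.7 TPM in CAC, against 21.6, 16.3, 25.9, 21.3 and 18.5 TPM in NCAC and 17.1, 19.3, 19.7, 20.1 and 23.1 TPM in Con. The CAC values ran from within the Con range to well above it. The log2 fold change over Con was 0.37 ± 0.14 (SE, adjusted p = 0.0852, limma), and without the 3 libraries that stood apart it was 0.45 with an adjusted p of 0.0233. Of these 3 libraries the one in this comparison was CAC replicate 3, at 18.8 TPM the lowest of its group.

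At 6 weeks both cryptochromes separated the tumour arms. Cry1 had 27.4, 26.997, 33.2, 31.6 and 34.6 TPM in CAC, against 22.1, 19.9, 21.02, 24.6 and 20.1 TPM in NCAC, and 21.05, 24.7, 31.6, 28.2 and 23.5 TPM in Con. Cry2 had 84.1, 78.6, 77.2, 86.4 and 93.8 TPM in CAC, against 69.6, 69.7, 70.5, 67.8 and 66.5 TPM in NCAC, and 76.2, 69.6, 82.6, 80.99 and 74.3 TPM in Con. For both genes every CAC library was above every NCAC library, and the Con libraries lay between the arms or overlapped both. Per1 and Per3, which were not called, did not overlap between CAC and NCAC either. That makes 5 of the 10 members, but the share of all genes without overlap was not computed. Unadjusted limma p-values under 0.05 were found for 5 of the 10 members here, beside 28.3% of all genes. The lowest CAC value was 64.9 TPM for Per1 and 16.2 TPM for Per3, and the highest NCAC value 63.8 and 16.0 TPM. The exact permutation p was 0.00794 for each of these 2 genes alone. Cry1 rose 1.41-fold in CAC over NCAC (log2 fold change 0.49 ± 0.15 (SE), adjusted p = 0.0327, limma) and Cry2 1.22-fold (log2 fold change 0.28 ± 0.0716 (SE), adjusted p = 0.0125, limma). With TMM scaling these were 0.40 (adjusted p = 0.0857) and 0.19 (adjusted p = 0.0582), so that 0 of the 3 members called here stayed past the threshold. Over all genes this comparison had 1167 higher and 232 lower calls, and 257 and 432 with TMM scaling, and at 8 weeks the counts were 636 and 237, and 372 and 440. Against Con at 6 weeks neither passed, with adjusted p-values of 0.479 for Cry1 and 0.43 for Cry2. For Cry1 and Cry2 the log2 fold changes over Con were 0.25 and 0.13 in CAC, and -0.24 and -0.15 in NCAC. The difference between the tumour arms thus holds both a higher CAC and a lower NCAC.

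At 2 weeks it was the arm without cachexia in which the cryptochromes stood high. Cry1 had 28.9, 28.5, 22.7, 22.6 and 27.1 TPM in NCAC and 18.4, 24.5, 20.1, 18.1 and 17.03 TPM in CAC, against 16.95, 16.8, 20.8, 16.4 and 20.2 TPM in Con. Cry2 had 79.8, 75.98, 73.2, 73.4 and 73.8 TPM in NCAC and 69.2, 76.9, 73.8, 65.2 and 71.1 TPM in CAC, against 58.1, 63.02, 66.3, 64.6 and 60.2 TPM in Con. NCAC and Con did not overlap for either gene. In this comparison 5 of the 10 members had an unadjusted limma p under 0.05, beside 27.3% of all genes. Cry1 rose 1.4-fold in NCAC over Con (log2 fold change 0.49 ± 0.15 (SE), adjusted p = 0.0363, limma) and Cry2 1.2-fold (log2 fold change 0.27 ± 0.0716 (SE), adjusted p = 0.0198, limma). Neither passed with 6 marker scores as terms (adjusted p = 0.13 and 0.136), nor without NCAC replicate 1, 2 or 5, with adjusted p-values of 0.0851, 0.117 and 0.0971 for Cry1 and 0.057, 0.0687 and 0.0539 for Cry2. The Cry1 call was also lost without Con replicate 1, 2 or 4. In the same comparison 4 of 8 excitatory neuron markers were called higher (5.87% of all genes) and 4 of 7 endothelial markers lower (2.84% of all genes) in NCAC, with summed excitatory levels of 1099 to 1446 TPM in NCAC and 655 to 1259 TPM in Con, and summed endothelial levels of 160 to 242 TPM in NCAC and 235 to 278 TPM in Con. Their part in the cryptochrome difference was not tested, and in bulk tissue fewer cells of a type and less RNA per cell cannot be told apart.

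Members also differed between weeks within the mock arm. In Con at 6 weeks against Con at 2 weeks, 2 members were called, Cry1 and Cry2, where 9.67% of all genes were called. Cry1 rose 1.39-fold (log2 fold change 0.47 ± 0.15 (SE), adjusted p = 0.035, limma) and Cry2 1.22-fold (log2 fold change 0.29 ± 0.0716 (SE), adjusted p = 0.0082, limma), and for both the groups did not overlap. The Cry1 call was lost with 5 of the 10 libraries left out in turn (adjusted p up to 0.095), with TMM scaling (adjusted p = 0.0538) and with marker scores as terms (adjusted p = 0.0749). In Con at 8 against 2 weeks 1 member was called, Cry2 (log2 fold change 0.22 ± 0.0716 (SE), adjusted p = 0.0363, limma), where 11.8% of all genes were called. That value was 0.13 with TMM scaling (adjusted p = 0.237) and 0.16 with the marker scores (adjusted p = 0.179). Con at 4 against 2 weeks had 0 members called (5.53% of all genes), with 0 unadjusted limma p-values under 0.05, beside 24.2% of all genes, and 0 exact p-values. Con at 6 against 4, 8 against 4 and 8 against 6 weeks also had 0 members called, with 0% of all genes called in each, and with 1, 1 and 2 unadjusted limma p-values under 0.05, beside 2.3%, 14.2% and 3.88% of all genes, and 1, 2 and 1 exact p-values. The Con libraries of 2 weeks had the lowest group mean of Npas2, Per1, Cry1, Cry2 and Nr1d2. They include the library with hypothalamus and pituitary markers, but without the libraries that stood apart Cry1 and Cry2 at 6 against 2 weeks were 0.51 and 0.28, about as large. Among the 4 weeks within Con, Cry2 alone was called of the 10 members (adjusted p = 0.0258, limma F test, 7.24% of all genes). Within CAC, Cry1 (adjusted p = 0.0271) and Cry2 (adjusted p = 0.018) were called beside Npas2, and within NCAC 0 of 10 members and 0% of all genes, with 0 members at an unadjusted p under 0.05, beside 3.24% of all genes. In CAC, weeks 2 and 4 were on lane 3 and weeks 6 and 8 on lane 4, so these calls do not tell week from lane.

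Whether the arm differences themselves changed with time was tested as an interaction. For CAC minus Con, 0 members passed at 8 against 2, 4 or 6 weeks, where 1.32%, 0% and 0% of all genes did, and 0 members had an unadjusted limma p under 0.05, beside 13.2%, 9.34% and 1.28% of all genes. For NCAC minus Con, 0 members passed at 2 against 4, 6 or 8 weeks, where 0.0345%, 0% and 0% of all genes did, and 2, 5 and 4 members had an unadjusted limma p under 0.05, beside 15.4%, 20.2% and 10.5% of all genes. The lowest adjusted p was that of Cry2 at 2 against 6 weeks (log2 difference 0.42 ± 0.10, SE, adjusted p = 0.0504, limma). The calls at 8 weeks in CAC and at 2 weeks in NCAC are thus not shown to be particular to those weeks.

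The Period genes, whose proteins carry the repressor complex to the nucleus, had folds as large as those of the cryptochromes but a wider spread between mice. Per2 at 2 weeks had 37.3, 25.5, 26.2, 25.9 and 27.4 TPM in NCAC, against 10.9, 17.6, 24.5, 16.8 and 22.3 TPM in Con. The groups did not overlap, and the log2 fold change was 0.63 ± 0.28 (SE, adjusted p = 0.137, limma, exact permutation p = 0.00794 for the gene alone, the smallest that 5 against 5 libraries can give). Per1, which is also induced directly by neuronal activity and by glucocorticoids, had a lowest value of 57.9, a median of 81.1 and a highest value of 106 TPM in CAC at 8 weeks, against 59.9, 38.99, 51.9, 44.3 and 70.7 TPM in NCAC and 68.6, 38.7, 74.3, 61.9 and 75.2 TPM in Con. The CAC values spread upwards beyond both other arms while overlapping them. Its log2 fold change was 0.62 ± 0.21 (SE) over NCAC with an adjusted p of 0.0697, and 0.37 ± 0.21 over Con with an adjusted p of 0.304 (limma). Without the 3 libraries that stood apart, the value over NCAC was 0.70 with an adjusted p of 0.0276.

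Per3 had its largest differences between arms at 4 weeks, where it was not called and where leaving out 1 library changed that. It had 27.7, 21.6, 17.4, 21.1 and 11.5 TPM in CAC, against 15.7, 16.3, 9.9, 19.2 and 9.95 TPM in NCAC and 10.5, 11.7, 16.2, 19.2 and 15.8 TPM in Con. CAC replicate 5 was the lowest of its group for Arntl, Clock, Per1, Per2, Per3, Cry1, Cry2 and Nr1d2, and replicate 1, the highest in Per3, was the library poor in striatal markers. Per3 had a log2 fold change of 0.39 ± 0.16 (SE) over Con with an adjusted p of 0.304 and of 0.45 ± 0.16 over NCAC with 0.176 (limma). Without CAC replicate 5, Per3 and Cry2 passed against Con (0.56, adjusted p = 0.0343, and 0.24, adjusted p = 0.0388) and against NCAC (0.62, adjusted p = 0.0144, and 0.24, adjusted p = 0.0285). The full fits called 0.0414% and 0.0069% of all genes, but the share called without this library is not given here. These calls are therefore not shown to be particular to clock genes. Exact permutation p-values of Per3 alone, with all libraries, were 0.151 over Con and 0.127 over NCAC. Without CAC replicate 1 Per3 was 0.26 over Con (adjusted p = 0.871) and 0.32 over NCAC (adjusted p = 0.683). At 4 weeks the CAC libraries were on lane 3 and the Con libraries on lane 4. In a fit that includes lane, estimated from NCAC at 4 weeks, which has 1 library on lane 4, the Per3 value over Con was -0.15 (adjusted p = 0.9996).

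The nuclear receptors Nr1d1 and Nr1d2, which repress Arntl, were called in no comparison between arms or weeks. Nr1d1 at 8 weeks had a lowest value of 92.6, a median of 135 and a highest value of 155 TPM in CAC, 110.2, 134, 136, 119 and 134 TPM in NCAC and 133, 122, 150.5, 137 and 122 TPM in Con. The arms overlapped, with log2 fold changes of -0.04 ± 0.12 (SE) over Con and 0.03 ± 0.12 over NCAC. Within Con it averaged 133 ± 11.9 TPM at 8 weeks and 102 ± 13.5 TPM at 4 weeks (SD, n = 5 each), groups that did not overlap, but this difference had an adjusted p of 0.277 (limma). Nr1d2 averaged 85.6 ± 3.59 TPM in NCAC and 73.7 ± 11.7 TPM in Con at 2 weeks (SD, n = 5 each, log2 fold change 0.23 ± 0.10, SE, adjusted p = 0.13, limma). Nr1d1 shares 263 exon bases (8.55% of its exons) with Thra on the opposite strand, a gene at a mean of 500 TPM. The sources used here do not say whether counting used strand, so part of the Nr1d1 value could be reads of Thra, and the pair had a correlation of 0.11 across libraries with group means removed.

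Set side by side, the members called in CAC at 6 or 8 weeks, Npas2 and the cryptochromes, were each higher, but these were picked by their calls. Arntl and Clock, the other activators, had log2 fold changes of -0.10 and -0.04 in CAC against Con at 8 weeks. At 8 weeks in CAC against Con, log2 fold changes were above 0 for 1 of 3 activators (median -0.04) and 6 of 7 repressors (median 0.22), beside a median of 0.02 for all tested genes. In CAC against NCAC, 3 of 3 activators and 6 of 7 repressors were above 0 at 6 weeks (medians 0.21 and 0.27, all genes 0.08), and 3 of 3 and 7 of 7 at 8 weeks (medians 0.11 and 0.29, all genes 0.05). Of these activators Arntl was at 0.01 at 6 weeks, below the median of all genes, and at 0.07 at 8 weeks. At 2 weeks NCAC against Con had a pattern like that of CAC against Con at 8 weeks, with 1 of 3 activators and 7 of 7 repressors above 0 (medians -0.03 and 0.27), and CAC against NCAC had 3 of 3 activators above 0 and 6 of 7 repressors below 0 (medians 0.18 and -0.15), with Nr1d1 the exception at 0.18. In CAC against NCAC Arntl, Per2 and Cry1 had exact permutation p-values of 0.0317, 0.0397 and 0.0238 for each gene alone, unadjusted, and adjusted limma p-values of 0.998. Con at 8 against 6 weeks had the same signs as CAC against NCAC at 2 weeks, 3 of 3 activators above 0 and 6 of 7 repressors below 0, with 0 members called.

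The log2 ratio of Arntl to Dbp, a repressor-phase output gene of the clock, was lowest in NCAC at 2 weeks among the arms of that week. Its median was -2.14 in CAC, -3.08 in NCAC and -2.30 in Con, with ranges of -2.88 to -1.53, -3.24 to -2.59 and -2.72 to -1.86. The NCAC libraries lay at the low end, with overlap with both other arms. Dbp at 2 weeks had 168, 188, 213, 218 and 209 TPM in NCAC, against 128, 133, 116, 155 and 162 TPM in Con, and rose 1.44-fold (log2 fold change 0.52 ± 0.15 (SE), adjusted p = 0.0233, limma), with no overlap. The Dbp call was lost with 3 of the 10 libraries left out in turn (adjusted p up to 0.0714), with marker scores as terms (adjusted p = 0.11) and when the groups compared were fitted alone (adjusted p = 0.0898).

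Other genes of the clock were counted in the same fit. Of 25 further genes (nuclear receptors, E-box repressors, output factors, kinases, ubiquitin ligases and partners of PER), CAC against Con had 1, 0, 0 and 1 called at 2, 4, 6 and 8 weeks, each higher in CAC, beside the 4.28%, 0.0414%, 1.63% and 8.6% of all genes given above. Of the 25, 8, 7, 3 and 8 had an unadjusted limma p under 0.05, beside 21.7%, 13.1%, 14% and 22.3% of all genes. NCAC against Con had 4 called at 2 weeks, all higher, beside 8.71% of all genes, and 0 later. There 9, 0, 0 and 1 of the 25 had an unadjusted limma p under 0.05, beside 27.3%, 0.614%, 6.58% and 4.39% of all genes. Hlf, a D-box activator, was called in each of the 4 comparisons between arms in which Cry2 was. At 8 weeks it had a lowest value of 110.3, a median of 142 and a highest value of 155 TPM in CAC, against 101, 85.8, 109, 96.5 and 113 TPM in Con, and rose 1.34-fold (log2 fold change 0.42 ± 0.0939 (SE), adjusted p = 0.00233, limma). At 2 weeks it rose 1.35-fold in NCAC over Con (log2 fold change 0.43 ± 0.10 (SE), adjusted p = 0.0109, limma). That Hlf call was lost with marker scores as terms (adjusted p = 0.0733) and when the groups compared were fitted alone (adjusted p = 0.0898), and the Hlf call in CAC against NCAC at 6 weeks with 7 of the 10 libraries left out in turn (adjusted p up to 0.0898) and with TMM scaling (adjusted p = 0.114). In NCAC against Con at 2 weeks Ciart rose 1.76-fold to 27.4 ± 4.31 TPM in NCAC, against 15.3 ± 3.92 TPM in Con (SD, n = 5 each, adjusted p = 0.0428, limma). That Ciart call was lost with 8 of the 10 libraries left out in turn (adjusted p up to 0.104) and with marker scores as terms (adjusted p = 0.209). The ubiquitin protease gene Usp2 rose 1.21-fold in the same comparison (adjusted p = 0.0485, limma). At 2 weeks in CAC the casein kinase 2 subunit Csnk2b was called (log2 fold change 0.21 ± 0.0563 (SE), adjusted p = 0.0246, limma). In CAC against NCAC, Hlf, Csnk1d, Fbxw11 and Timeless were called at 6 weeks and Bhlhe40 and Hlf at 8 weeks, all higher, beside 9.65% and 6.02% of all genes. These, Csnk2b and Usp2 were chosen after their values were seen. Tef, Nfil3 and Bhlhe41 were called in none of the 12 comparisons between arms.

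Glucocorticoid-induced genes moved with the later CAC groups. Of 12 listed genes, the number called higher in CAC than in Con was 0, 0, 3 and 12 at 2, 4, 6 and 8 weeks, beside 3.68%, 0.0414%, 1.2% and 4.91% of all genes, with 1, 0, 10 and 12 at an unadjusted limma p under 0.05, and in NCAC over Con it was 1, 0, 0 and 0, beside 5.87% of all genes at 2 weeks, with 4, 0, 0 and 0. Fkbp5, whose product binds the glucocorticoid receptor complex, had a lowest value of 17.7, a median of 51.4 and a highest value of 68.4 TPM in CAC at 8 weeks, against 12.95, 15.7, 16.3, 16.7 and 19.2 TPM in Con. The lowest CAC value, in the replicate rich in erythroid RNA, lay within the Con range. Of 12 immediate early genes 0 were called in any of the 12 comparisons between arms, with at most 3 at an unadjusted limma p under 0.05. Cell type markers moved as well: at 8 weeks in CAC against Con, 4 of 6 tested microglia markers and 3 of 8 oligodendrocyte markers were called lower, beside 3.69% of all genes, with summed microglia levels of 266 to 368 TPM in CAC and 378 to 566 TPM in Con, and at 6 weeks 6 of 8 oligodendrocyte markers were called lower in CAC than in NCAC, beside 1.6% of all genes, with sums of 1909 to 2129 TPM in CAC and 2172 to 2821 TPM in NCAC. Summed endothelial markers were 231 to 291 TPM in CAC, 190 to 235 TPM in NCAC and 205 to 229 TPM in Con at 6 weeks, and 223 to 348 TPM in CAC, 192 to 230 TPM in NCAC and 217 to 235 TPM in Con at 8 weeks, with 1 of 7 called higher in CAC over Con at each week. Choroid plexus sums had medians of 181 TPM in CAC, 1609 TPM in NCAC and 1815 TPM in Con at 6 weeks and of 162, 1158 and 1013 TPM in the same order at 8 weeks, with wide overlap and 0 of 7 markers called. The part of these shifts in the clock gene results was not tested.

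Within groups, the clock genes varied together from mouse to mouse. Correlations were computed on log2(TPM + 1) with the mean of each group removed, over 62 libraries, with p-values from 100000 permutations within groups, of which 1e-05 is the smallest possible value, adjusted over the 45 pairs of members. Of these 45 pairs 24 passed at an adjusted p under 0.05, 22 with positive and 2 with negative sign. The block of Per2, Per3, Cry1, Cry2 and Nr1d2 was the tightest, with r between 0.65 and 0.82 in its 10 pairs. Per2 and Cry1 had r = 0.82 (Spearman's rho 0.83, adjusted p = 3.21e-05), 0.80 without the 2 farthest libraries, 0.85 in CAC, 0.75 in NCAC and 0.86 in Con, and 0.85 and 0.79 within lanes 3 and 4. Of all tested genes, 99.993% had a lower correlation with Per2 than Cry1 had. The 5 NCAC mice of 4 weeks show it: replicates 3 and 5 had 9.71 and 11.4 TPM of Per2, 9.90 and 9.95 TPM of Per3, 16.5 and 17.7 TPM of Cry1 and 68.6 and 64.8 TPM of Nr1d2, each below the other 3 libraries of the group, which had at least 23.5, 15.7, 21.2 and 84.2 TPM.

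Per1 joined this block less tightly, with r from 0.42 with Cry1 to 0.65 with Per2 (rho 0.57, adjusted p = 3.21e-05, 0.59 without the 2 farthest libraries, 0.52 and 0.70 within lanes 3 and 4). Nr1d1 stood apart from its paralogue. Its r with Nr1d2 was -0.05 (rho -0.11, adjusted p = 0.793), and it gave both negative pairs that passed, with Cry1 (r = -0.55, rho -0.59, adjusted p = 9e-05, -0.59 without the 2 farthest libraries, -0.66 and -0.50 within lanes) and with Per2 (r = -0.35, rho -0.42, adjusted p = 0.0178, -0.32 without the 2 farthest libraries, -0.40 and -0.34 within lanes). Cry1 is a known REV-ERB target, and its r with Nr1d2 was 0.65. Arntl, Clock and Npas2, also repressed by REV-ERB, had r = 0.08, -0.12 and 0.13 with Nr1d1, and none of these passed. The part of REV-ERB in these correlations was not tested. In CAC at 6 weeks, replicate 3 had the lowest Nr1d1 of all libraries (71.9 TPM) with 33.2 TPM of Cry1.

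The activators formed a second group. Arntl and Clock had r = 0.66 (rho 0.65, adjusted p = 3.21e-05, 0.66 without the 2 farthest libraries, 0.48 and 0.75 within lanes 3 and 4), and Arntl and Npas2 r = 0.57 (rho 0.59, adjusted p = 3.21e-05, 0.55 without the 2 farthest libraries, 0.50 and 0.63 within lanes). Of all tested genes 99.9% had a lower correlation with Arntl than Clock had. Neither pair passed within the 24 libraries of lane 3 alone, where the adjusted p over the 9 relations of Arntl was 0.134 for Clock and 0.111 for Npas2. Between Arntl and the 7 repressors r ran from -0.21 (Per2) to 0.08 (Nr1d1), and none of these 7 passed over the 9 relations of Arntl. With TMM scaling Per2 (-0.39), Per3 (-0.45), Cry1 (-0.38) and Nr1d2 (-0.41) did. Library-wide measures moved with these genes: the log2 TMM factor, with group means removed, had r = 0.77 with Clock, 0.68 with Nr1d2, 0.55 with Per3 and 0.36 with Arntl, and the mean level of excitatory neuron markers had r = 0.52 with Arntl, 0.47 with Clock and 0.44 with Npas2. Clock and Nr1d2 had r = 0.50, but 0.20 with TMM scaling. The part of library make-up in the correlations was not tested beyond these values.

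**Figure D3:**
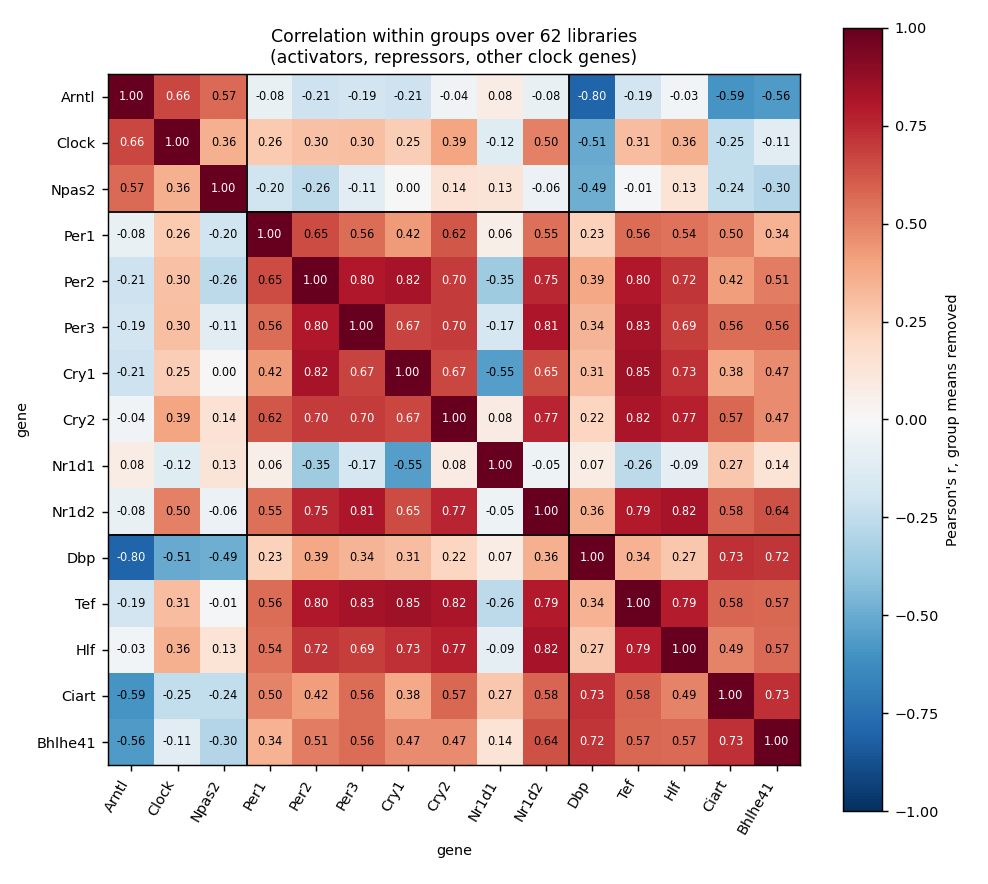
Pearson's r (colour and number) between the 10 core clock genes and 5 further clock genes over 62 libraries with group means removed. Per2, Per3, Cry1, Cry2 and Nr1d2 form a block with r of 0.65 to 0.82, the activators correlate with each other, and Dbp runs against Arntl at -0.80.

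The gene that ran most against Arntl was an output gene of the clock. Among all 14494 tested genes, Dbp, a D-box activator switched on directly by BMAL1 and CLOCK at E-boxes, had the lowest r with Arntl (-0.80, rho -0.76). It was -0.79 in CAC, -0.84 in NCAC and -0.78 in Con, -0.79 and -0.82 within lanes 3 and 4, and -0.79 without the 2 farthest libraries (adjusted p = 6.67e-05 over 120 relations of members with 12 other genes, of which 63 passed). Ciart had r = -0.59 and Bhlhe41, an E-box repressor, -0.56 with Arntl (rho -0.52 and -0.51, adjusted p = 6.67e-05 and 2e-04). Clock and Npas2 also ran against Dbp, at -0.51 and -0.49 (adjusted p = 4.46e-04 and 5.54e-04). In the mice this can be read directly: in NCAC at 8 weeks the library with the highest Arntl (35.1 TPM, replicate 2) had the lowest Dbp of its group (139 TPM), and the one with the lowest Arntl (22.7 TPM, replicate 4) the highest Dbp (216 TPM). Nr1d1, another direct E-box target, did not do so, with r = 0.08 with Arntl and 0.07 with Dbp.

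Tef, a further D-box activator, followed the repressor block, with r = 0.85 with Cry1, 0.83 with Per3, 0.82 with Cry2 and 0.80 with Per2 (rho 0.82, 0.83, 0.81 and 0.81, each adjusted p = 6.67e-05). No tested gene had a higher r with Cry1 or with Cry2 than Tef. Hlf had r = 0.82 with Nr1d2. Nfil3, the repressor of D-boxes and a REV-ERB target, had r = 0.40 with Arntl (adjusted p = 0.0169), 0.49 with Per1 (adjusted p = 2.91e-04) and 0.33 with Clock (adjusted p = 0.0465), and between -0.13 and 0.08 with Npas2, Per2, Per3, Cry1, Cry2, Nr1d1 and Nr1d2, none of which passed.

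Per1 went with neuronal activity genes. It had r = 0.86 with Egr1, 0.81 with Fos and 0.80 with Arc, immediate early genes of neurons (rho 0.87, 0.82 and 0.82, each adjusted p = 6.67e-05). For Egr1 it was 0.85 and 0.84 within lanes 3 and 4, 0.84, 0.88 and 0.87 in CAC, NCAC and Con, and 0.84 without the 2 farthest libraries. Per2 had r = 0.46 and Per3 0.25 with Egr1. Of the glucocorticoid-induced genes Tsc22d3, Sgk1 and Fkbp5, Per1 had r = 0.58, 0.58 and 0.33, whereas Cry1 had 0.70, 0.67 and 0.63 (adjusted p = 6.67e-05, 1.50e-04 and 1.78e-04). Within lanes 3 and 4, Cry1 and Fkbp5 had 0.80 and 0.49.

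**Figure D4:**
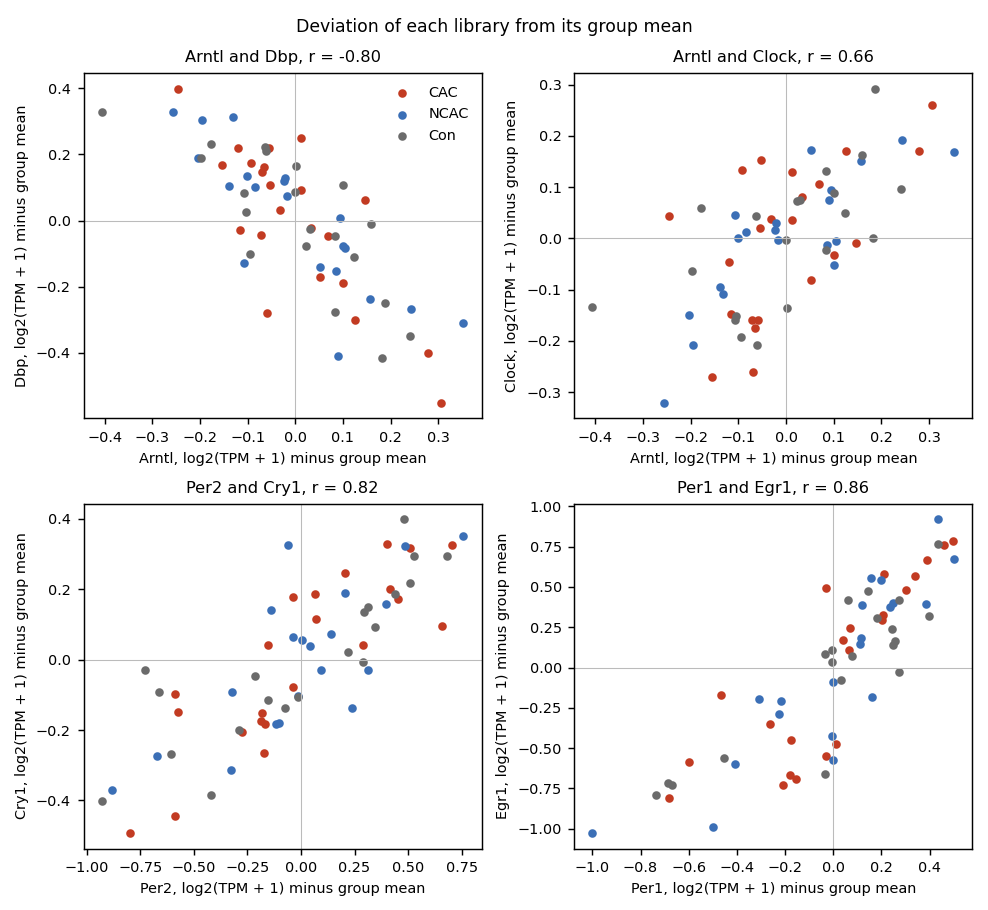
Deviation of each of 62 libraries from its group mean, on log2(TPM + 1), for 4 gene pairs (one gene on each axis), with CAC in red, NCAC in blue and Con in grey. Libraries with more Arntl than their group have less Dbp (r = -0.80) and more Clock (r = 0.66), Per2 rises with Cry1 (r = 0.82) and Per1 with Egr1 (r = 0.86).

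The genes most and least like 3 members across the 62 libraries, with group means removed, were listed over all tested genes, as a description. Most like Arntl were Pfkp (r = 0.71), Gramd4 (0.70), Tmem56 (0.69), Cap2 (0.69) and Cdh12 (0.68), and least like it Dbp (-0.80), Gareml (-0.62), Ciart (-0.59), Cracr2b (-0.58) and Tspan4 (-0.57). Most like Per1 were Sik1 (0.86), Egr1 (0.86), Tiparp (0.85), Trib1 (0.85) and Mcl1 (0.85), and least like it Lcmt2 (-0.76), B3galt6 (-0.63), Zfp867 (-0.62) and Snapc2 (-0.61). For Nr1d1 the highest were Slc7a8 (0.66), Tcf19 (0.66), 0610040B10Rik (0.65), Rcor2 (0.64) and Cldn22 (0.64), and the lowest Enox1 (-0.66), Rngtt (-0.66), Mkks (-0.64), Hist2h3c1 (-0.64) and Chordc1 (-0.62). The 10 members themselves were left out of these lists. Of the further clock genes Dbp and Ciart were among them, both on the low side of Arntl. For Per2, added after the data were seen, the highest were Ahnak (0.84), Acin1 (0.82), Vcl (0.81), Tef (0.80) and Bcl6 (0.80).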

How the data were processed

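Neocortex poly(A) RNA of 62 mice in 12 groups was sequenced from a stranded library kit on an Illumina instrument, per the labels' protocols. That protocol text also names LLC cells and a 3-week time point, which match no group here. The authors deposited TPM values for 47643 genes, and the submitters' processing notes name mm10. The sources used here do not give the aligner, quantifier, annotation or strand use. Depth (44.8 to 50.5 M reads, median 48.0) was estimated from steps of low deposited TPM values, of which 84.4% of 207527 were whole reads within 0.05, with exon lengths of GENCODE vM21. No 2 libraries were identical, and the labels call them biological replicates.

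The 14494 genes averaging 1 TPM or more were fitted as log2(TPM + 1) with limma 3.58.1 in R 4.3.3 over 12 groups (50 residual degrees of freedom, trended variance), and p-values were adjusted over all genes in each comparison. Exact permutation tests of single genes were two-sided. The fit was tested on simulated data for CAC against Con at 8 weeks, where it recovered 50% of genes changed 1.2-fold and 90% of those changed 1.5-fold, with 6.67% false calls. Correlations used Python 3.11.15 and scipy 1.17.1. Members, lists and tests were chosen with earlier results of these data known. Named genes were the 10 members, other clock genes called against Con at 6 or 8 weeks, Dbp, Tef, Hlf, Nfil3, Bhlhe41 and Ciart, the 5 highest and 5 lowest correlates of Arntl, Nr1d1 and Per1, and 6 genes beside Per1. Alternatives were a pseudocount of 0.1, no filter, TMM scaling, 6 marker scores as terms, lane as a term, a replicate block, robust moderation, leaving out 3 libraries that stood apart, fitting only the groups compared, exact tests, and leaving out each library in turn. Correlations of all pairs, with the marker scores removed, likeness to Per2, and the change of the NCAC difference were added after the data were seen. Replicate numbers did not pair samples across groups. The table held 27 symbols turned into dates, which are not named, and 2 genes that met the naming rule are not reported here.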

Additional observations from a re-analysis of the deposited data

Results flagged for a closer look

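In 3 of 120 combinations of a core clock gene and a group, 1 library stood far from the others of its group, where chance alone flags about 1 in 20, or 6. Npas2 had 30.9 TPM in Con replicate 1 at 4 weeks, against 25.2 to 26.4 TPM in the other libraries of the group. Per2 had 37.3 TPM in NCAC replicate 1 at 2 weeks, against 25.5 to 27.4 TPM. Nr1d1 had 129 TPM in NCAC replicate 3 at 4 weeks, against 103 to 110.0 TPM, and this is one of the 2 libraries of that group that were low in Per2, Per3, Cry1 and Nr1d2.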

How the results depend on the processing

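Calls of core clock genes depended on the processing. Leaving out each library in turn gave 0 to 1, 0 to 2, 0 and 1 to 3 members called in CAC against Con at 2, 4, 6 and 8 weeks, 0 to 2 in NCAC against Con at 2 weeks, 0 to 2, 2 to 4 and 1 to 3 in CAC against NCAC at 4, 6 and 8 weeks, 1 to 3 in Con at 6 against 2 weeks, 0 to 1 in Con at 8 against 2 weeks, 0 to 4 among weeks within CAC and 0 to 1 within Con, and 0 to 2 in the change of NCAC minus Con at 2 against 6 weeks. With TMM scaling the counts were 1 in CAC against Con at 8 weeks, 0 and 1 in CAC against NCAC at 6 and 8 weeks, 1 and 0 in Con at 6 and 8 against 2 weeks, and 1 within CAC. Over all genes, CAC against Con at 8 weeks then had 708 higher and 633 lower calls (712 and 535 without TMM scaling). With no filter on level they were 1 in CAC against Con at 8 weeks, 1 in NCAC against Con at 2 weeks, and 1 and 0 in Con at 6 and 8 against 2 weeks, where more genes were tested. With marker scores as terms they were 0 in NCAC against Con at 2 weeks, 1 and 0 in Con at 6 and 8 against 2 weeks, and 0 within Con. Fitting only the groups compared gave 0 in CAC against Con at 8 weeks, NCAC against Con at 2 weeks, CAC against NCAC at 8 weeks, Con at 8 against 2 weeks and within CAC. Without the 3 libraries that stood apart the counts were 4 in CAC against NCAC at 8 weeks and 2 in Con at 8 against 2 weeks. Apart from TMM scaling, the share of all genes called in these alternative fits is not given here. A changed count of members is therefore not shown to be particular to the clock genes. The cause of these changes was not tested. Replicate numbers did not pair libraries (median correlation of same-numbered libraries of other groups 0.0048, against -0.0080 for other numbers), and with the number as a replicate block 0 members were called in CAC against Con and 0 in CAC against NCAC at 8 weeks, and 1 within CAC.

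The correlations of Arntl passed with Per2 at -0.391, Per3 at -0.447, Cry1 at -0.377 and Nr1d2 at -0.408 with TMM scaling, and with Per2 at -0.311, Per3 at -0.313 and Cry1 at -0.307 with marker scores removed. Within lane 3 those with Clock (0.475) and Npas2 (0.502) did not pass, and those with Per1 (0.260) and Cry2 (0.144) turned positive. With lane as a term, CAC against Con at 4 weeks turned to -0.147 for Per3 and -0.0165 for Hlf. Over all genes, TMM scaling gave 500 higher and 172 lower calls in CAC against Con at 2 weeks (533 and 87 without it), 111 and 104 at 6 weeks (174 and 62), 664 and 269 in Con at 6 against 2 weeks (1239 and 163) and 252 and 246 in Con at 8 against 2 weeks (1600 and 110). Counting error was at most 3.7% for any member, and for each member it was below the SD within every group. The limits are 5 to 7 mice a group, bulk tissue and an unknown hour of collection.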
